A study of Ovis aries with 30 samples.

Results

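The 26S proteasome was examined here through its subunit genes, in perirenal brown adipose tissue (BAT) and in the thyroid gland of Romney lambs shortly after birth. The members were the genes whose symbol reads PSMA, PSMB, PSMC or PSMD followed by a number. PSMB8, PSMB9 and PSMB10, the catalytic subunits of the immunoproteasome, were left out of the members and are used further on as a comparison. This gave 36 members of the 28524 genes in the count table.

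RNA-seq of polyadenylated RNA was run on 30 libraries, a BAT and a thyroid library from each of 15 lambs. The cold group held 6 lambs kept at 4 °C for 2 days, and the ambient temperature (AT) group held 6 lambs kept at 20 to 22 °C for 2 days. The 3 control lambs were sampled at about 24 h after lambing, before any exposure. Cold and AT lambs were therefore 2 days older than control lambs, and treatment and age cannot be told apart in a comparison with the controls. The only contrast between lambs of the same age was cold against AT. No lamb carried a transgene or received an agent, and lambs are called by their group and number below (Cold 1 to 6, AT 1 to 6, Control 1 to 3).

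The proteasome degrades proteins that carry ubiquitin chains. Its 20S core is a barrel of alpha and beta rings, with the proteolytic sites inside on the beta subunits. The 19S regulatory particle caps the barrel: its lid removes ubiquitin, and its base holds the ATPases that unfold the substrate and feed it in. In brown fat, proteasome genes are known as targets of NRF1, the transcription factor encoded by NFE2L1, whose activity supports heat production in the cold.

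By role, the 36 members comprised 8 subunits of the alpha ring (PSMA1 to PSMA8), 3 catalytic beta subunits (PSMB5, PSMB6, PSMB7), 4 beta subunits without a proteolytic site (PSMB1 to PSMB4) and the thymus form PSMB11. The 19S genes comprised 6 base ATPases (PSMC1 to PSMC6), 3 base subunits that are not ATPases (PSMD1, PSMD2, PSMD4) and 8 lid subunits (PSMD3, PSMD6, PSMD7, PSMD8, PSMD11, PSMD12, PSMD13, PSMD14). The remaining 3 members, PSMD5, PSMD9 and PSMD10, are chaperones that help assemble the base and are not part of the finished particle. PSMB11, which is made in thymic epithelium, had at most 9 counts in a library and reads in 17 of the 30 libraries. It failed the minimum of 10 reads in 10 libraries, so 35 members were tested in each tissue.

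BAT libraries held 31556500 to 37025998 counts and thyroid libraries 25062784 to 30124871. LOC114112617 and LOC114115287 took 43.8 to 76.5% of the counts in BAT and 5.18 to 27.8% in thyroid tissue, so that 8093700 to 18276329 counts per BAT library and 18098434 to 26929601 per thyroid library fell on other genes. The tissue labels held: the summed normalized counts of 7 thyroid follicular genes (TG, TSHR and others) were 1245738 to 5479436 in the fitted thyroid libraries and 32.8 to 1157 in BAT. Control 2, which the study left out, was not fitted here either, and 2 controls remained. In BAT, Control 2 was above both other controls in 33 of the 35 members, against 30.9% of all genes tested. In thyroid tissue it was above both in 4 members and below both in 26, where 56.9% of all genes were below both. A second library stood apart: the thyroid library of AT 3 had summed normalized counts of 8 skeletal muscle genes (ACTA1, CKM and others) of 3357024, against a median of 305 in the AT group, and Control 1 had 291856. Member calls within a tissue are given with and without these libraries. The fits that join both tissues and the pathway calls kept AT 3 and Control 1 throughout.

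Member levels were compared between genes as normalized counts per kb of exonic length, over 14 lambs. PSMB1, a beta subunit without a proteolytic site, was highest in both tissues, at 2292 ± 244 in BAT and 2324 ± 747 in thyroid tissue (SD, n = 14). At the other end stood PSMA8, the testis form of an alpha subunit, and PSMB11. The members followed nearly the same order in both tissues, with a Spearman's rho of 0.922 over all 36 members and 0.908 over the 34 left without PSMA8 and PSMB11. This describes 36 genes that share libraries and depth, and no test was made. In each tissue, 34 of the 35 neighbouring pairs in the order had overlapping ranges over lambs. The pair that did not overlap was PSMA8 and PSMB11 in BAT, and PSMD14 and PSMA8 in thyroid tissue.

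The catalytic genes lie on 3 chromosomes (coordinates of Oar_rambouillet_v1.0, spanning exons and introns). PSMB5, the chymotrypsin-like subunit, occupies chr7:23140494-23145935 on the plus strand with 3 exonic stretches. PSMB11 lies next to it on the minus strand at chr7:23133963-23134895, as a single exonic stretch. PSMB6, the caspase-like subunit, is at chr11:36798230-36800934, and PSMB7, the trypsin-like subunit, at chr3:11688680-11745224. PSMD14 (Rpn11), the lid deubiquitinase that cuts ubiquitin chains off the substrate, spans chr2:160251774-160354589.

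The first comparison asked how member transcripts in thyroid tissue differed between cold lambs and control lambs. All 35 members tested had a negative log2FC, with a median of -0.96 and a range from -1.67 for PSMD14 to -0.38 for PSMA8. The median over all 16122 genes tested was -0.28. Of the members, 27 were downregulated and 0 upregulated at an adjusted p under 0.05, where 16.9% of all genes were called lower and 2.34% higher (edgeR quasi-likelihood test, Benjamini-Hochberg over all genes tested). With the further condition of an absolute log2FC of 1 or more, 16 members were called, against 6.15% of all genes. In 33 members every cold lamb lay below both controls, a pattern found in 28.5% of all genes.

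Every structural group of the particle was represented. Downregulated in cold thyroid were 5 of 8 alpha subunits, 2 of 3 catalytic and 3 of 4 other beta subunits, 5 of 6 ATPases, all 3 non-ATPase subunits of the base, 7 of 8 lid subunits and 2 of 3 chaperones. Median log2FC was -1.19 for the catalytic subunits, -1.06 for the lid, -1.02 for the ATPases, -0.90 for both the alpha ring and the other base subunits, -0.84 for the other beta subunits and -0.76 for the chaperones. The members not called were PSMA2, PSMA3, PSMA8, PSMB4, PSMB7, PSMC6, PSMD13 and PSMD5.

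PSMB5 gave normalized counts in thyroid tissue of 1357, 1415 and 1523 (lowest, median and highest of 6 cold lambs). In AT lambs the values were 1070, 1305 and 3136, and the controls were at 2631 and 5147, with 1161 in Control 2. The cold lambs formed a narrow band below both fitted controls, whereas the highest AT value, that of AT 3, lay above Control 1. The log2FC of PSMB5 was -1.44 (SE 0.33, adjusted p = 0.0101 by edgeR) for cold against control. With all 3 controls it was -1.06 (adjusted p = 0.0551 by edgeR), and with Control 2 in place of Control 3 it was -0.41 (adjusted p = 0.471 by edgeR).

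PSMB6 stood at 1853, 2135 and 2331 in cold lambs, at 1565, 2180 and 4321 in AT lambs and at 3213 and 4461 in controls. PSMB7 stood at 1131, 1204 and 1331 in cold lambs, at 878, 1229 and 3969 in AT lambs and at 2076 and 3429 in controls. For both genes the cold lambs did not overlap with the fitted controls, and of the AT lambs only AT 3 lay above Control 1. The cold log2FC was -0.85 (SE 0.27, adjusted p = 0.0411 by edgeR) for PSMB6, and the call was lost with all 3 controls (-0.60, adjusted p = 0.141 by edgeR) and with TMM scaling (-0.54, adjusted p = 0.183 by edgeR). For PSMB7 it was larger, at -1.19, but so was its SE of 0.43, and its adjusted p was 0.0699 (edgeR).

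PSMD14 had the most negative log2FC of the members. Its normalized counts were 221, 319 and 380 in cold lambs, 158, 295 and 1140 in AT lambs, and 771 and 1239 in controls. The cold lambs lay far below both fitted controls, although Control 2, at 202, lay below all of them. The cold log2FC was -1.67 (SE 0.52, adjusted p = 0.0401 by edgeR), and it became -1.22 (adjusted p = 0.128 by edgeR) with all 3 controls.

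At the other end were PSMD5, an assembly chaperone at chr2:2761694-2781658, and PSMA8, at chr23:35414601-35436271. PSMD5 had 1032, 1213 and 1541 normalized counts in cold lambs, 908, 1156 and 1262 in AT lambs and 1353 and 2046 in controls. Cold 3 reached above Control 1, so the groups overlapped. The log2FC was -0.45 (SE 0.18, adjusted p = 0.0855 by edgeR). PSMA8 was scarce in thyroid tissue, at 13.8, 22.4 and 37.7 normalized counts in cold lambs, 8.25, 24.6 and 33.7 in AT lambs and 35.8 and 25.1 in controls. These ranges overlapped throughout, and the log2FC of -0.38 (SE 0.46) had an adjusted p of 0.585 (edgeR).

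**Figure D1:**
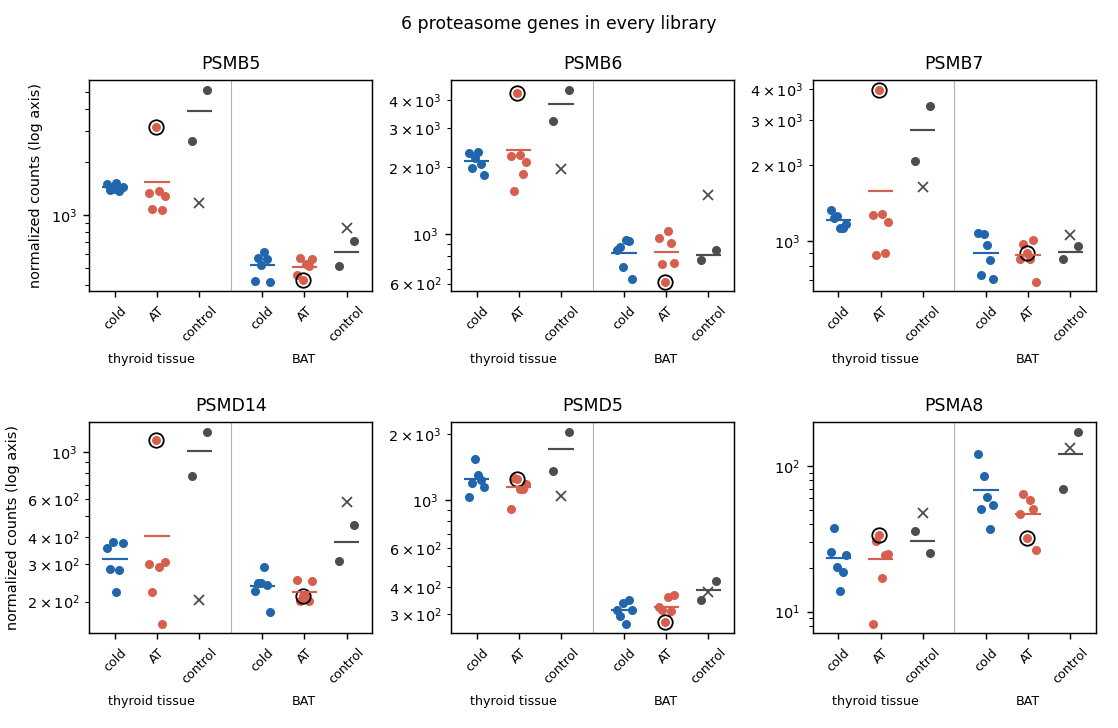
Normalized counts (log axis) of PSMB5, PSMB6, PSMB7, PSMD14, PSMD5 and PSMA8 in every library, by tissue and group, with bars at the group mean, a ring on AT 3 and a cross on Control 2, which enters neither fits nor means. In thyroid tissue the 6 cold lambs lie below both fitted controls in PSMB5, PSMB6, PSMB7 and PSMD14 while AT 3 lies above Control 1; the tissues were scaled separately, so heights are not comparable between tissues.

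Beside these values, other measures moved between the groups. Thyroid follicular genes summed to 1666444 to 2580863 in cold lambs and to 2689609 and 5479436 in the fitted controls, with none of the 7 genes at 0. This sum was mostly TG, with a median of 2115433 over the fitted thyroid libraries. The medians of the other follicular genes ran from 4123 for TSHR to 12068 for FOXE1, so the sum does not describe them. Fibroblast genes (5 genes, COL1A1 among them) summed to 24494 to 104630 in cold lambs and to 10290 and 12749 in controls. Endothelial genes (5 genes) summed to 10362 to 15049 in cold lambs and to 18592 and 28283 in controls, and brown adipocyte genes to 1019 to 1685 and to 2052 and 3193. Within the latter list, medians over the fitted thyroid libraries were 749 for PPARGC1A, 408 for EBF2 and only 16 for UCP1. In Control 2 the follicular (1602668) and endothelial (9163) sums lay below every cold lamb. Its fibroblast sum (20590) lay on the same side of the cold lambs as the fitted controls. Its brown adipocyte sum (12579) lay above the cold lambs and also far above both fitted controls. Adipocyte genes (6 genes) summed to 11554 in Control 2, to 2469 and 2611 in the fitted controls and to 1507 to 6424 in cold lambs. Control 2 thus also differed from the fitted controls in these lists. Their part in the result was not tested. In bulk tissue, fewer cells of a type and less RNA per cell cannot be told apart. The calls also depended on the scaling. The libraries were scaled on 3 reference genes, ACTB, RPL19 and HUWE1. Of the calls over all genes, 12.2% were then higher and the rest lower. With edgeR's TMM scaling 43.9% of the calls were higher, and 4 members remained called lower (PSMB5, PSMC4, PSMD11, PSMD9), against 4.97% of all genes. The difference between the member median and the all-gene median barely moved, from -0.68 to -0.67. All 35 members stayed negative under both scalings.

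PSMC4, an ATPase of the base, and PSMD9, a chaperone, were called under both scalings. PSMC4 had 1201, 1447 and 1741 normalized counts in cold thyroid and 2817 and 4065 in controls, a log2FC of -1.23 (SE 0.27, adjusted p = 0.00899 by edgeR). PSMD9 had 554, 650 and 714 in cold thyroid and 875 and 1295 in controls, a log2FC of -0.76 (SE 0.17, adjusted p = 0.00925 by edgeR). In neither gene did the groups overlap. With all 3 controls PSMC4 was still called and PSMD9 was not. Both were named after their values were seen.

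In AT lambs, thyroid member transcripts were also lower than in the controls, in fewer calls. Again all 35 log2FC were negative, with a median of -0.79, and 14 members were downregulated where 18.7% of all genes were called lower (edgeR). They were PSMA4, PSMA6, PSMA7, PSMB5, PSMC1, PSMC3, PSMC4, PSMD2, PSMD3, PSMD11, PSMD12 and the chaperones PSMD5, PSMD9 and PSMD10. Only PSMB5 (log2FC -1.33, SE 0.33, adjusted p = 0.0126 by edgeR) and PSMD3 (log2FC -1.01, SE 0.30, adjusted p = 0.0304 by edgeR), a lid subunit, also passed an absolute log2FC of 1, against 5.98% of all genes. With all 3 controls neither was called, and PSMB5 was at -0.95 (adjusted p = 0.0848 by edgeR). The 2 members in which no AT lamb reached a control were the chaperones PSMD5 and PSMD9, where 21.7% of all genes had this pattern. With TMM scaling 2 members were called lower, PSMB5 and PSMD9, against 4.7% of all genes, and the share of calls that were higher went from 10.6 to 46.2%. Cold and AT share their controls, so the 2 comparisons are not independent.

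**Figure D2:**
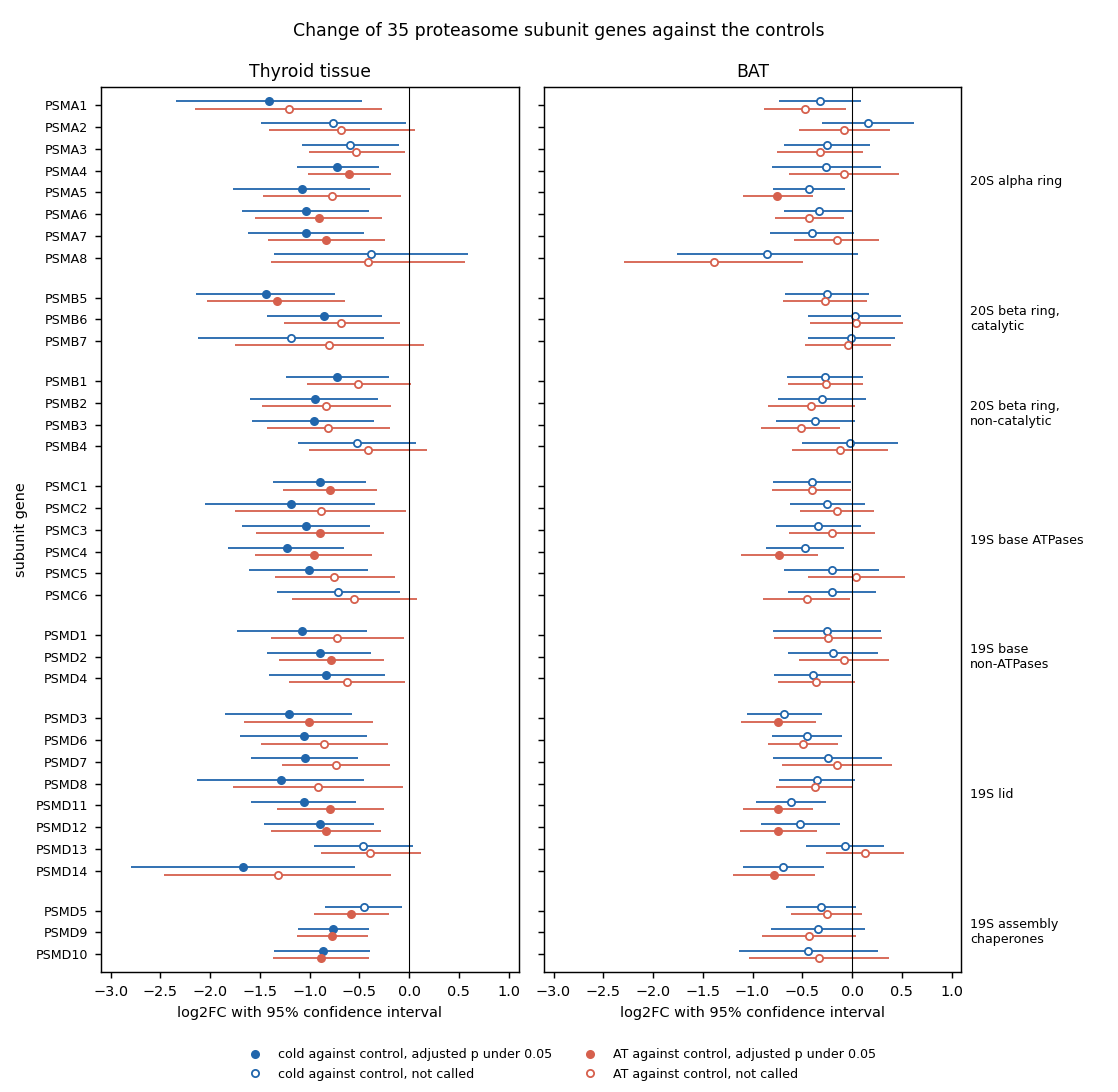
Log2FC of cold (against control) and AT (against control) for the 35 members tested, ordered by role, in thyroid tissue and in BAT, with 95% confidence intervals from the edgeR fit and filled points for an adjusted p under 0.05. In thyroid tissue every point lies left of 0, with 27 filled for cold and 14 for AT, whereas the BAT points lie closer to 0, with 0 and 6 filled.

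The AT counts in thyroid tissue turned on the library of AT 3. Its normalized counts exceeded those of all 5 other AT lambs in 34 of the 35 members, where 34.1% of all genes tested did so. The ratio of AT 3 to the median of the other 5 AT lambs had a median of 2.2 over members, and 1.06 over all genes. It ran from 1.1 for PSMD5 to 3.93 for PSMD14, and PSMB7 stood at 3.33. By role, the median ratio was 2.44 for the catalytic subunits, 2.42 for the lid, 2.24 for the ATPases and 1.15 for the assembly chaperones. AT 3 was at or above a fitted control in 33 of the 35 members, and in 8497 of all 16122 genes tested.

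Part of this ratio depended on the scaling. The reference genes were low in this library: HUWE1 was at 231 CPM, on counts outside the LOC pair, in AT 3 and at 341 to 398 in the other AT lambs. The fitted thyroid controls were also low, at 279 and 301 for HUWE1 and at 788 and 1104 for RPL19, against 297 to 407 and 1142 to 1382 in cold lambs, which bears on each comparison with the controls. In CPM, which uses no reference gene, the median ratio was 1.44 over members and 0.71 over all genes, and AT 3 lay above all other AT lambs in 29 members and in 13.3% of all genes. In the BAT library of the same lamb the median ratio was 0.832 and 0 members lay above all other AT lambs, against 4.88% of all genes. The skeletal muscle genes named above were high in the thyroid library of AT 3 and not in its BAT library, where the highest sum in the AT group was 323. Their part in the member values was not tested.

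**Figure D3:**
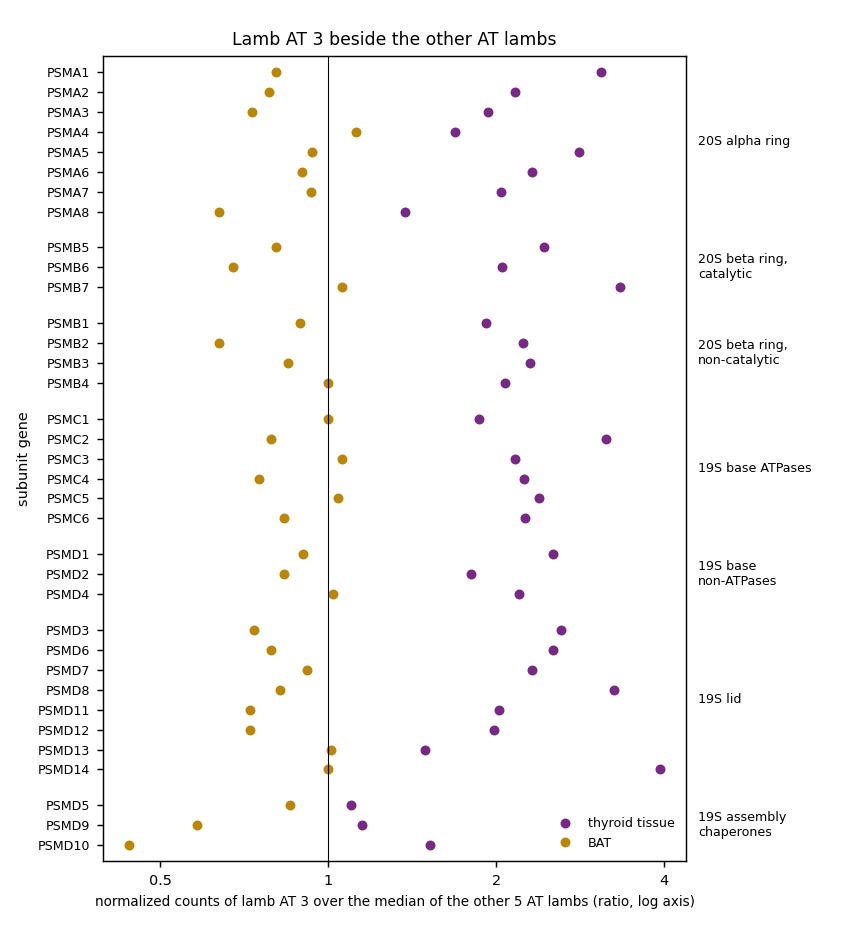
Ratio of AT 3 to the median of the other 5 AT lambs for each member tested, in thyroid tissue and BAT, computed on normalized counts with 1 added. In thyroid tissue the ratios run from 1.1 for PSMD5 to 3.93 for PSMD14, and in BAT most lie below 1.

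Without AT 3, the thyroid comparison of AT with control called 34 of 35 members lower, where 30% of all genes were called lower. The median log2FC became -1.04, and in 33 members no AT lamb reached a control, against 33.3% of all genes. The 2 members that still overlapped were PSMA8 and the lid subunit PSMD13. The fit shares its estimate of spread over groups, and the cold comparison then called 32 members, where 25.9% of all genes were called lower. PSMB5 in AT lambs was at -1.67 (SE 0.19, adjusted p = 5.79e-05 by edgeR) and PSMD14 at -1.98 (SE 0.26, adjusted p = 0.000161 by edgeR). With AT 3 and Control 1 left out and Control 2 brought in, 25 members were called lower in AT lambs, against 18.9% of all genes.

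Cold and AT lambs, which were of the same age, were not separated by any member in either tissue. In thyroid tissue 0 members were called, as were 0 of all 16122 genes by edgeR, and no member reached an unadjusted p under 0.05 (2.11% of all genes were higher and 3.29% lower at that level). DESeq2 called 2 genes higher and 2 lower among all genes. The median log2FC of the members was -0.16, and it changed sign, to 0.12, without AT 3. PSMB5 was at 0.22 (SE 0.14, adjusted p = 0.951 by edgeR) without that lamb. In BAT, 0 members were called where 0.215% of all genes were higher and 0.0939% lower, and the median log2FC was 0.032. The alpha subunit PSMA5 alone passed an unadjusted p of 0.05 there (5.56% of all genes were higher and 6.73% lower at that level), with a log2FC of 0.32 (95% confidence interval 0.054 to 0.58, adjusted p = 0.328 by edgeR).

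The same comparisons were made in BAT. For cold against control, 33 of 35 log2FC were negative, with a median of -0.32 beside -0.10 over all 14905 genes tested. At an adjusted p under 0.05, 0 members were called, where 0.604% of all genes were higher and 0.879% lower (edgeR). At an unadjusted p under 0.05, 9 members were lower, against 11.2% of all genes. At an adjusted p under 0.05, DESeq2 called 3 members lower, against 3.24% of all genes. In 16 members every cold lamb lay below both controls, against 15.7% of all genes.

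The catalytic subunits showed little difference in BAT with the fitted controls. PSMB5 had 416, 538 and 615 normalized counts in cold lambs, 424, 520 and 568.2 in AT lambs and 512 and 712 in controls. PSMB6 had 632, 864 and 941 in cold lambs, 613, 825 and 1037 in AT lambs and 766 and 852 in controls. PSMB7 had 711, 907 and 1077 in cold lambs, 692, 876 and 1013 in AT lambs and 852 and 956 in controls. The 3 groups overlapped in each gene, and the cold log2FC was -0.25 (95% confidence interval -0.67 to 0.17), 0.027 (-0.44 to 0.49) and -0.0071 (-0.44 to 0.43) in that order. Control 2 lay above both fitted controls in each, at 841 for PSMB5, 1495 for PSMB6 and 1058 for PSMB7. With all 3 controls the cold log2FC became -0.35, -0.27 and -0.025, so PSMB6 changed sign, and none was called by edgeR. PSMA2, an alpha subunit with the most positive value, had 560, 869 and 989 in cold lambs, 573, 715 and 796 in AT lambs and 651 and 815 in controls, a log2FC of 0.16 (-0.30 to 0.62).

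The most negative values in cold BAT were those of PSMA8 and PSMD14. PSMA8 had 37.1, 57.5 and 120.9 normalized counts in cold lambs, 26.6, 48.9 and 64.6 in AT lambs, and 69.5 and 171.6 in controls. The cold range overlapped with the controls and the AT range did not. The log2FC was -0.85 (SE 0.43, adjusted p = 0.313 by edgeR) for cold and -1.39 (SE 0.42, adjusted p = 0.0508 by edgeR) for AT. PSMD14 had 179, 241 and 290 in cold lambs, 201, 213 and 251 in AT lambs and 309 and 453 in controls, with 581 in Control 2. All treated lambs lay below all controls. Its log2FC was -0.69 (SE 0.20, adjusted p = 0.0761 by edgeR) for cold and -0.78 (SE 0.19, adjusted p = 0.0221 by edgeR) for AT, the latter moving to an adjusted p of 0.0575 (edgeR) under TMM scaling.

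In AT lambs 6 members were downregulated in BAT and 0 upregulated, where 6.15% of all genes were called lower and 3.15% higher (edgeR). None of the 6 passed an absolute log2FC of 1, which 3.21% of all genes did while lower. Of these, 4 belong to the lid (PSMD3, PSMD11, PSMD12, PSMD14), 1 is an ATPase of the base (PSMC4) and 1 an alpha subunit (PSMA5). Their log2FC lay between -0.78 and -0.73. PSMD3 had 405.5 to 663.6 normalized counts in AT lambs and 889.2 and 929.1 in controls. PSMA5 had 306.6 to 409.5 in AT lambs and 588.3 and 603.8 in controls. Neither gene's groups overlapped, and in 16 members no AT lamb reached a control, against 15.3% of all genes. The median log2FC over members was -0.33, beside -0.031 over all genes, and both moved with Control 2. By role, the lid had the lowest median (-0.61) and the catalytic subunits the highest (-0.04).

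Control 2 bears on these counts in the direction opposite to thyroid tissue. With all 3 controls fitted, 13 members were called lower in AT BAT and 4 in cold BAT, against 5.41 and 3.18% of all genes. The member median became -0.58 for AT, beside 0.11 over all genes, and -0.51 for cold, beside 0.074. In thyroid tissue the cold count went from 27 to 14 and the AT count from 14 to 6, against 14.4 and 13.6% of all genes, with member medians of -0.76 and -0.62 beside -0.23 and -0.21. Scaling changed the split of calls over all genes in BAT as well, from 40.7 to 58.3% higher for cold and from 33.8 to 49.7% for AT under TMM. The member counts there were 0 and 6, with PSMA8 (log2FC -1.30, adjusted p = 0.0352 by edgeR) in place of PSMD14 for AT. Brown adipocyte genes (5 of the 6 listed were in the table, UCP1 among them) summed to 24365 and 30118 in the fitted BAT controls, to 5977 to 17965 in cold lambs and to 1391 to 18048 in AT lambs. Fibroblast genes summed to 22831 and 23823 in the controls, to 26938 to 85253 in cold lambs and to 26265 to 143556 in AT lambs. Endothelial genes summed to 43318 and 47902 in the controls, to 33807 to 49451 in cold lambs and to 26269 to 36247 in AT lambs. Their part in the member values was not tested.

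The 2 tissues of a lamb were then compared in a joint fit with the lamb as a block. The tissue difference was the mean of the differences within cold, AT and control lambs, each with equal weight. The 2 fitted controls thus weighed as much as the 6 cold or the 6 AT lambs, and it is not a plain average over lambs. In BAT, 11 members were higher than in thyroid tissue and 7 lower, where 46.1% of all genes were called higher and 26.8% lower (edgeR, 17021 genes tested). PSMA8 stood far apart, as the only member with an absolute log2 difference of 1 or more (25.5% of all genes were higher and 14.1% lower by this rule). Its level was 27.7, 58 and 171 normalized counts per kb in BAT (lowest, median and highest of 14 lambs) and 3.24, 9.48 and 14.1 in thyroid tissue. It was higher in BAT in all 14 lambs, with no overlap, and the log2 difference was 2.82 (SE 0.29, adjusted p = 1.82e-07 by edgeR).

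PSMD7, a lid subunit, had 1082, 1779 and 2336 per kb in BAT and 675, 749 and 1744 in thyroid tissue. PSMA4, an alpha subunit, had 1108, 1581 and 2354 per kb in BAT and 676, 786 and 1412 in thyroid tissue. The ranges overlapped, but within each of the 14 lambs both genes were higher in BAT. The log2 difference was 0.79 (SE 0.12, adjusted p = 2.01e-05 by edgeR) for PSMD7 and 0.78 (SE 0.11, adjusted p = 4.86e-06 by edgeR) for PSMA4. The other members called higher in BAT were PSMA1, PSMA2, PSMA7, PSMB7, PSMC5, PSMD1, PSMD13 and PSMD14.

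In the other direction, PSMC4 had 325, 455 and 684 per kb in BAT and 519, 631 and 1781 in thyroid tissue. PSMD5 had 220, 252 and 330 per kb in BAT and 277, 363 and 631 in thyroid tissue. Both were higher in BAT in 0 of 14 lambs. The log2 difference was -0.76 (SE 0.14, adjusted p = 0.000148 by edgeR) for PSMC4 and -0.60 (SE 0.09, adjusted p = 1.76e-05 by edgeR) for PSMD5. PSMB5, with 519, 670 and 906 per kb in BAT and 533, 680 and 2606 in thyroid tissue, was called lower in BAT at -0.49 (SE 0.15, adjusted p = 0.00661 by edgeR), yet 7 of the 14 lambs had the higher level in BAT. Its tissue difference was -1.27 (SE 0.34) in the controls, -0.11 (SE 0.20) in cold lambs and -0.10 (SE 0.20) in AT lambs, and with all 3 controls the call was lost (-0.26, adjusted p = 0.208 by edgeR). The other members called lower in BAT were PSMB6, PSMD4, PSMD9 and PSMD12.

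The median tissue difference over the members was 0.02 and became -0.15 under TMM scaling and -0.27 with median-of-ratios size factors, so no direction can be given for the members as a group. Relative to the median of all genes it was -0.23, -0.23 and -0.24. The share of calls over all genes that were higher in BAT was 63.3, 54.8 and 48.2%. The directions and calls of PSMA8, PSMD7, PSMA4, PSMC4, PSMD5 and PSMB5 held under all 3 scalings.

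**Figure D4:**
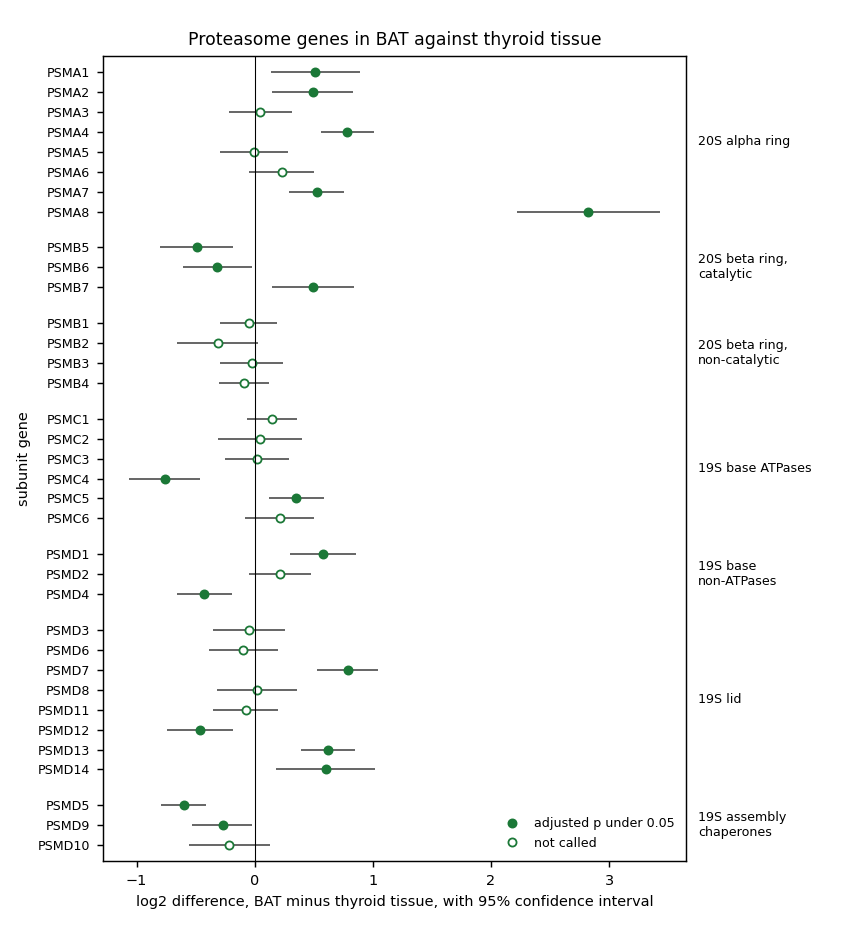
Log2 difference between BAT and thyroid tissue for the 35 members tested, from the joint fit with the lamb as block, with 95% confidence intervals and filled points for an adjusted p under 0.05. PSMA8 stands apart at 2.82, and the other members lie between -0.76 for PSMC4 and 0.79 for PSMD7.

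Within treatments, 15 members were higher and 1 lower in BAT of cold lambs (44 and 22% of all genes). In AT lambs 12 were higher and 3 lower (45.7 and 20.1% of all genes). In the controls 1 was higher, PSMA8, and 5 were lower, PSMB5, PSMB6, PSMC4, PSMD4 and PSMD5 (21.4 and 18.2% of all genes). Whether the response to cold or AT itself differed between tissues was tested in the same fit. For cold against control, 0 members were called, where 0.217% of all genes were called with a higher value in BAT and 0.0176% with a lower one. For AT against control, 0 members were called, where 1.23% and 0.182% of all genes were. At an unadjusted p under 0.05 the value was higher in BAT for 11 members with cold and 9 with AT, against 10.4% and 15.4% of all genes. PSMB5 had the lowest unadjusted p of the members in both, with a difference in the cold response of 1.15 (95% confidence interval 0.32 to 1.99, adjusted p = 0.235 by edgeR). The median difference between tissues over the members was 0.65 for cold and 0.54 for AT, beside 0.26 and 0.31 over all genes. With all 3 controls it was 0.22 and 0.18, now below the all-gene medians of 0.31 and 0.36, and again 0 members were called. A difference between the tissues in the members' response was thus not shown.

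As a measure without reference genes, the members' summed share of the counts outside the LOC pair was computed. In thyroid tissue it was 0.212 to 0.237% in cold lambs and 0.302 and 0.324% in the fitted controls, with 0.261% in Control 2, so cold lambs lay below all 3 controls. The AT lambs had 0.188 to 0.234% except AT 3, which had 0.316%. In BAT the share was 0.166 to 0.24% in cold lambs, 0.181 to 0.234% in AT lambs and 0.219 and 0.263% in controls, with 0.268% in Control 2, and the groups overlapped. A share falls when other genes take more of the counts, which was not separated from a change in the members.

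The balance between the cap and the core was compared next, as a description with no test. The mean level per kb of the 19S members divided by that of the 20S members was 0.623 to 0.712 in cold thyroid, 0.656 to 0.697 in AT thyroid and 0.676 and 0.72 in the controls. In BAT it was 0.591 to 0.65 in cold lambs, 0.593 to 0.702 in AT lambs and 0.654 and 0.692 in the controls, with 0.661 in Control 2. The groups overlapped in thyroid tissue, whereas every cold BAT library lay below the BAT controls. The spread of the members between lambs was smaller than that of all genes at the median, except in AT thyroid with AT 3. The SD of log2 normalized counts over 6 lambs had a median of 0.148 over members in cold thyroid, beside 0.259 over all genes and 0.195 over genes of a similar level. In BAT it was 0.212 and 0.204 in cold and AT lambs, beside 0.309 and 0.409 over all genes. In AT thyroid it was 0.512 beside 0.356, and 0.194 beside 0.292 without AT 3.

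The immunoproteasome replaces PSMB5, PSMB6 and PSMB7 with PSMB8, PSMB9 and PSMB10, which interferon is known to induce and which shape peptides for antigen presentation. The log2 ratio of counts of each pair was compared within libraries, where scaling between libraries has no part. In thyroid tissue the PSMB8 to PSMB5 ratio was -1.31 ± 0.82 in cold lambs, -1.48 ± 0.72 in AT lambs (SD, n = 6 each) and -3.29 ± 0.72 in the controls (SD, n = 2). The lowest cold value was -2.05 and the lowest AT value -2.48, that of AT 3. The fitted controls were at -2.78 and -3.80, below every treated lamb, while Control 2 was at -1.70 and lay among them. The difference was 1.98 for cold and 1.81 for AT, each with an exact permutation p of 0.0357, the smallest that 28 splits allow, and an adjusted p of 0.214 over the 18 tests.

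PSMB10 to PSMB7 differed by 1.21 in cold thyroid (exact permutation p = 0.0357, adjusted p = 0.214) and PSMB9 to PSMB6 by 1.61 (exact permutation p = 0.0714, adjusted p = 0.214). No ratio passed the threshold in any of the 18 tests. In cold thyroid the numerators PSMB8, PSMB9 and PSMB10 had log2FC of 0.88 (SE 0.58), 1.05 (SE 0.61) and 0.16 (SE 0.34), none called by edgeR. In BAT the cold ratios exceeded the control ratios by 0.92, 0.71 and 0.77 in the same order of pairs, with exact permutation p-values of 0.25, 0.286 and 0.0714. Between the tissues, PSMB8, PSMB9 and PSMB10 were higher in BAT by 2.36 (SE 0.16), 1.88 (SE 0.15) and 1.30 (SE 0.11) on the log2 scale, with adjusted p-values of 2.26e-09, 1.19e-08 and 2.3e-08 (edgeR).

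**Figure D5:**
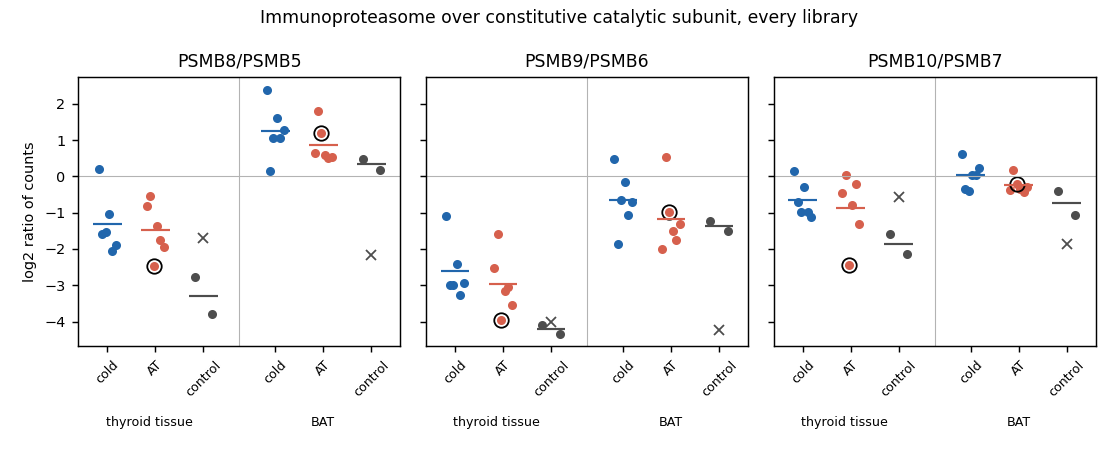
Log2 ratio of counts of PSMB8 to PSMB5, PSMB9 to PSMB6 and PSMB10 to PSMB7 in each library, by tissue and group, with a bar at the group mean, a ring on AT 3 and a cross on Control 2, which is in no mean. In thyroid tissue the fitted controls have the lowest PSMB8 to PSMB5 ratios, -2.78 and -3.80, and Control 2 lies among the treated lambs.

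Other genes of the ubiquitin and proteasome pathway were read from the same fits, from a list of 47 genes of which 45 were tested in each tissue. In cold thyroid 0 were upregulated and 12 downregulated, where 2.34% of all genes were called higher and 16.9% lower, and their median log2FC was -0.51 beside -0.28 over all genes. The list's NRF1 genes gave 4 of 9 tested. MAFF, a small MAF partner of such factors, fell the most, from 589 and 1182 normalized counts in the controls to 143 to 190 in cold lambs (log2FC -2.46, adjusted p = 0.000535 by edgeR). SYVN1, a ubiquitin ligase of the endoplasmic reticulum, was at -1.46 (adjusted p = 0.00946 by edgeR). Its groups overlapped, with 1042 to 1922 normalized counts in cold lambs and 1889 and 5928 in the controls. The pathway calls were read only under the reference-gene scaling with the fitted controls. NFE2L1 itself was at -0.94 (SE 0.35, adjusted p = 0.072 by edgeR) and was not called.

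Partners of the particle were also among the 12. POMP, the maturation factor of the 20S core, had a log2FC of -1.22 (adjusted p = 0.025 by edgeR), and ADRM1, a ubiquitin receptor of the 19S particle, of -1.18 (adjusted p = 0.00789 by edgeR). The others called were MAFG, SEL1L, PSMG1, PSME3, UBE3C, NPLOC4, UFD1 and FAF2, between -1.01 and -0.43. In AT thyroid 0 were upregulated and 12 downregulated, where 18.7% of all genes were called lower, with MAFF at -2.40 and SYVN1 at -1.43, and POMP was not called (log2FC -1.01, adjusted p = 0.0517 by edgeR).

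In BAT few of the 45 pathway genes tested were called. For cold, 1 was higher and 1 lower, where 0.604% of all genes were higher and 0.879% lower. For AT, 1 was higher and 3 lower, where 3.15% of all genes were higher and 6.15% lower. FBXO32, a ubiquitin ligase known from muscle wasting, was upregulated in cold (log2FC 1.09) and AT lambs (1.36). ZFAND2A was downregulated in both (-1.30 and -1.01), and MAFF (-1.82) and PSME3 (-0.65) in AT lambs. Cold against AT gave 0 calls among pathway genes in both tissues. Between tissues, 18 of 46 tested pathway genes were higher in BAT and 5 lower, both smaller shares than the 46.1 and 26.8% of all genes. NFE2L1 was higher in BAT by 0.74 (SE 0.16, adjusted p = 0.000636 by edgeR) and POMP by 0.80 (SE 0.14, adjusted p = 0.000112 by edgeR), whereas the ubiquitin shuttle UBQLN2 was at -1.24 and NFE2L2, the antioxidant relative of NFE2L1, at -0.85.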

How the data were processed

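Perirenal BAT and thyroid tissue of 15 lambs were measured by paired-end RNA-seq, giving 30 libraries. The authors checked reads with FastQC 0.11.9, trimmed them with Trimmomatic 0.39, aligned them to Oar_rambouillet_v1.0 with STAR 2.7.7a and counted them per gene with featureCounts of Subread 2.0.0. The deposited values are raw counts, not normalized. Reads that map to several places were counted at each, so near-identical copies of a gene share reads, and the strand setting is not stated. The supplement of the study, whose per-lamb normalized counts match all libraries but those of Control 2, showed which control it left out, and Control 2 was left out here too.

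From the counts, each tissue was fitted in R 4.3.3 with edgeR 4.0.16 (glmQLFit with robust = TRUE, glmQLFTest), with cold, AT and control in the same fit. Offsets were DESeq2 1.42.0 size factors of ACTB, RPL19 and HUWE1, as the study used. Tested genes had a minimum of 10 reads in 10 or more of the fitted libraries, and p-values were adjusted by Benjamini-Hochberg over all of them at 0.05. Each lamb is a separate animal. A joint fit of both tissues held the lamb as a block, since the animal number in the library titles pairs a BAT with a thyroid library. The deviations of a lamb's BAT and thyroid libraries from their group means correlated at over 0.1 in 13 of 14 lambs (0.0456 to 0.327). Log2 ratios were tested by 2-sided exact permutation (counts + 1, Python 3.11.15, SciPy 1.17.1, pandas 2.3.3), and plots drawn with matplotlib 3.10.9. No 2 libraries of a group agreed within counting noise (the smallest chi-square divided by its degrees of freedom was 38.3).

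Members and gene lists were chosen with earlier results of these data known. Values per library are given for PSMB5, PSMB6, PSMB7, the 2 most negative and the 2 most positive members of cold against control in each tissue, and the 3 largest tissue differences in each direction. Members named further are said to be so or belong to a call of 6 or fewer. Chromosome numbers were assigned to the file's sequence names by shared gene symbols with the RefSeq table of another assembly, ARS-UI_Ramb_v3.0, and coordinates are those of the file. Member promoters and protein sequences were not used here. Alternatives tried were other scalings, filters, tools and call rules, all 3 controls, the RNA integrity number as covariate, fits of 2 groups and leaving out each lamb. Some genes of the lists first drawn up are not reported here. The fits were tested on simulated data, for cold against control. A true absolute log2FC of 1 was called in 25% of changed genes in BAT and in 19% in thyroid tissue. A true absolute log2FC of 2 was called in 86% and 80%. In each tissue 6 unchanged genes were called. The simulation changed 100 genes at each size, equally up and down, and gave the reference genes no noise. The real thyroid comparison had 378 genes called higher and 2732 lower. The rates hold for the simulated setting and do not give the share of true changes found in the real fits.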

Additional observations from a re-analysis of the deposited data

Results flagged for a closer look

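The thyroid library of AT 3 stood apart from the other 5 AT lambs in 29 members, its gap to the nearest of them passing Dixon's critical value for 6 samples. In the alpha ring its normalized counts were 1924 for PSMA1, 2448 for PSMA2, 1929 for PSMA3, 2459 for PSMA4, 2321 for PSMA5, 2516 for PSMA6 and 3950 for PSMA7. In the beta ring they were 5466 for PSMB1, 1998 for PSMB2, 2969 for PSMB3, 4844 for PSMB4, 3136 for PSMB5, 4321 for PSMB6 and 3969 for PSMB7. All 6 ATPases of the base stood apart, with 3656 for PSMC1, 3944 for PSMC2, 5089 for PSMC3, 3264 for PSMC4, 3982 for PSMC5 and 2501 for PSMC6. Among the other 19S subunits the normalized counts were 5487 for PSMD1, 2953 for PSMD3, 5838 for PSMD4, 2036 for PSMD6, 4264 for PSMD7, 4006 for PSMD8, 3213 for PSMD11, 3167 for PSMD12 and 1140 for PSMD14. The members' summed share of the counts outside the LOC pair was 0.316% in this library and 0.188 to 0.234% in the other 5. The same library held the high skeletal muscle counts given in the report, and their part in these values was not tested.

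Outside that library, 5 values stood apart from their group. In BAT of AT lambs, PSMD9 was at 136 normalized counts in AT 3 and at 212 to 254 in the others, and the PSMB10 to PSMB7 log2 ratio was 0.17 in AT 2 and -0.44 to -0.22 in the others. PSMB11 was at 1.65 normalized counts in AT 5 and at 0 in the other AT lambs. In thyroid tissue of cold lambs, PSMD6 was at 1012 in Cold 3 and at 814 to 887 in the others, and the members' share was 0.237% in Cold 1 and 0.212 to 0.22% in the others. Of 159 groups of values examined, chance passes about 1 in 20.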

How the results depend on the processing

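Counts of members called lower depended on the scaling, the controls and single libraries. In thyroid tissue, cold against control called 27 members, which became 4 with TMM scaling, 3 with median-of-ratios size factors, 14 with all 3 controls, 11 with both TMM and all 3 controls (added after seeing the data) and 16 with an absolute log2FC of 1 or more. It became 20 with the RNA integrity number as covariate, 19 with no filter beyond 1 read and 31 with only the 2 groups fitted. Of all genes, 16.9% were called lower with the settings of the report. With the alternatives, in the order given, 4.97, 4.84, 14.4, 7.66, 6.15, 14, 9.27 and 21.6% were. Leaving out 1 library gave 6 to 32: 16, 13 and 14 without Cold 2, Cold 5 and Cold 6, and 10 and 6 without Control 1 and Control 3, with Control 2 in their place. The shares of all genes called lower were then 12.4, 11.4, 12.3, 15.6 and 10.7%. AT against control called 14 in thyroid tissue, which became 2 with TMM, 1 with median-of-ratios, 6 with all 3 controls, 3 with both TMM and all 3 controls, 8 with no filter beyond 1 read, 5 with the RNA integrity number as covariate, 0 with only the 2 groups fitted, 25 without AT 3 and Control 1 and with Control 2 (added after seeing the data) and 2 with an absolute log2FC of 1 or more. Of all genes, 18.7% were called lower with the settings of the report. With the alternatives, in the order given, 4.7, 4.67, 13.6, 5.82, 10.2, 13.8, 5.58, 18.9 and 5.98% were. Leaving out 1 library gave 3 to 34: 34 without AT 3, 6, 6, 5, 5 and 6 without AT 1, AT 2, AT 4, AT 5 and AT 6, 8 and 8 without Cold 2 and Cold 6, and 5 and 3 without Control 1 and Control 3. Of all genes, 30% were lower without AT 3, and 14.7 to 16.6% without another AT lamb, Cold 2 or Cold 6. Without Control 1 and Control 3 the shares were 14.8 and 9.32%. In BAT, cold against control called 0, which became 3 with DESeq2, 4 with all 3 controls, 12 with both TMM and all 3 controls, and 0 to 7 without 1 library (7 without Control 1 or Control 3, 3 without AT 6). Of all genes, 0.879% were called lower with the settings of the report. The share was 3.24% with DESeq2, 3.18% with all 3 controls and 6.73% with both TMM and all 3 controls. Without Control 1, Control 3 and AT 6 it was 4.42, 4.59 and 2.87%. AT against control called 6 in BAT, which became 13, 21 and 0 with all 3 controls, with both TMM and all 3 controls, and with only the 2 groups fitted, 0 with an absolute log2FC of 1 or more, and 6 to 15 without 1 library (15 and 11 without Control 1 and Control 3). Of all genes, 6.15% were called lower with the settings of the report. With the alternatives, in the order given, 5.41, 11.2, 2.44 and 3.21% were, and 5.53 and 4.6% without Control 1 and Control 3. Between tissues, 11 members were higher in BAT, which became 6 with TMM, 6 with median-of-ratios and 1 with an absolute log2FC of 1 or more. Of all 17021 genes, 7848 were higher with the settings of the report, and 6816, 6052 and 4346 with these alternatives. The 7 lower ones became 17 with median-of-ratios, 4 with all 3 controls and 0 with an absolute log2FC of 1 or more. Of all genes, 26.8% were lower with the settings of the report, and 38.2, 26 and 14.1% with these alternatives. The fit with no replicate block, which ignores that 2 libraries share a lamb, called 8 higher and 8 lower, and 7570 and 4515 of all 17021 genes. With an absolute log2FC of 1 or more the call rule itself is stricter, and for the other changes the cause was not tested. Among the members with values given per library, no value called with the settings of the report changed sign. With Control 2 in place of Control 3, 32 of the 35 members tested were negative in thyroid tissue, for cold and for AT. With the fitted controls all 35 were negative. Over all recomputed values of the members given per library, called or not, the sign changed in 62 of 870. It changed in 4 of 288 recomputed ratios. The adjusted p of the ratios stayed between 0.0714 and 0.944. Only 2 controls were fitted.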
